A study of Saccharomyces cerevisiae with 6 samples.

Results

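The 8 genes described here mark budding yeast of mating type a: MFA1, MFA2, STE6, BAR1, STE2, ASG7, AGA1 and AGA2. They were taken by name from the annotation of the array, and all 8 were found, each with 1 probe set that names no other gene, among 5551 genes tested. Saccharomyces cerevisiae of 2 strains was compared, 3 arrays a strain. Both strains are MATa and carry the deletions leu2∆1, his3∆200 and trp1∆63 and the alleles lys2-801, ura3-52 and ade2-101. In both the chromosomal TRA1 gene is disrupted with HIS3, and a centromeric plasmid marked with LEU2 carries TRA1, in wild-type form in one strain and as the temperature-sensitive allele tra1-2ts in the other. Cultures in the rich medium YPD were moved from 30 to 37 °C, and each strain was sampled once at 60, 90 and 120 min. The labels do not state whether each time was a culture of its own. The 3 times serve as the replicates of a strain, and p-values therefore reflect the spread over these arrays alone, part of which is change with time and part of which may be technical. All 6 arrays of the study were taken after the shift, so levels before it cannot be given.

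Haploid yeast is of type a or type alpha, and each type responds to the pheromone of the other. In a cells the DNA-binding protein Mcm1 drives the a-specific genes; in alpha cells the protein alpha2, together with Mcm1 and the corepressor Tup1-Cyc8, keeps them off. Pheromone raises many of them further through the transcription factor Ste12. AGA1 differs from the others in that cells of both types can make it. Tra1, in which the strains differ, is a shared subunit of the coactivator complexes SAGA and NuA4.

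Values are log2 signals after robust multi-array averaging (RMA), so that a difference of 1 is a 2-fold change, and all differences are tra1-2ts minus wild type. RMA makes the arrays' distributions alike, and a change is therefore relative to the bulk of the messenger RNA. Over the tested genes the array medians lay between 6.33 and 6.43, and Pearson's r across genes was 0.990 to 0.996 within a strain and 0.964 to 0.975 between strains. TRA1 mRNA, from either allele, averaged 8.44 ± 0.30 (SD) over the 3 wild-type arrays and 9.37 ± 0.016 over the 3 tra1-2ts arrays; since both alleles are read alike, this is no check on the labels. As a floor, the brightest of 4 control probe sets for mouse genes averaged 3.93. Single values of the 4 sets ran from 2.19 to 4.22. In bulk RNA, more cells expressing a gene and more RNA per cell cannot be told apart.

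All 8 a-specific genes were higher in tra1-2ts than in wild type. The differences ran from 0.54 for ASG7 (1.46-fold) to 1.68 for BAR1 (3.21-fold), with a median of 1.19 against 0.001 over all genes tested. Each of the 8 passed the strain test, limma fitted over all genes with Benjamini-Hochberg adjustment, with adjusted p between 4.11e-05 and 0.00408. The background is high: 40.6% of all genes passed that test in either direction and 18.3% passed it as higher. In each of the 8 the 3 tra1-2ts arrays all lay above the 3 wild-type arrays, which was true of 26.1% of all genes. A difference of at least 2-fold was reached by 5 of the 8, MFA1, MFA2, AGA1, AGA2 and BAR1, against 2.43% of all genes.

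**Figure D1:**
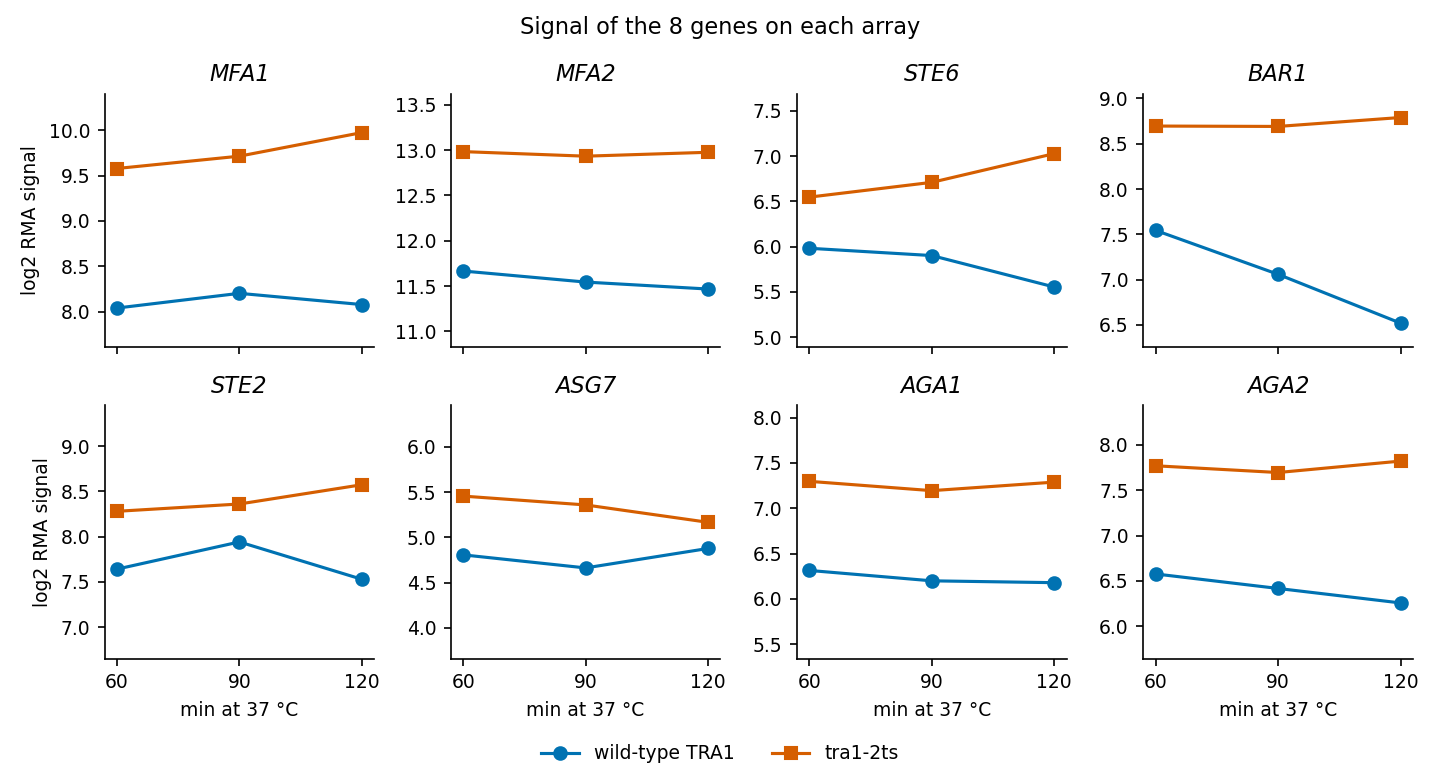
Log2 RMA signal (vertical axis) of the 8 genes at 60, 90 and 120 min at 37 °C (horizontal axis), 1 point per array, with circles for wild-type TRA1 and squares for tra1-2ts. Every panel spans the same number of log2 units but not the same levels. The squares lie above the circles in each panel, and the BAR1 circles go from 7.54 to 6.52.

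The genes of the pheromone itself came first in the size of the rise, together with BAR1. MFA1 and MFA2 each encode a precursor of a-factor, the farnesylated peptide that a cells secrete. They are short genes, with coding lengths in RefSeq of 111 and 117 bases. MFA1 read 8.04, 8.20 and 8.08 in wild type at 60, 90 and 120 min, and 9.58, 9.72 and 9.98 in tra1-2ts. The lowest tra1-2ts array was 1.38 above the highest wild-type array, the widest separation among the 8. The fitted rise was 1.65 ± 0.12 (SE; 3.14-fold, adjusted p = 6.2e-05). MFA2 read 11.67, 11.54 and 11.47 in wild type and 12.98, 12.93 and 12.98 in tra1-2ts. Its tra1-2ts arrays differed among themselves by less than those of any other of the 8 genes (SD 0.027, n = 3), and its rise was 1.41 ± 0.09 (2.65-fold, adjusted p = 4.11e-05). The 95% intervals of the rises, 1.38 to 1.92 for MFA1 and 1.20 to 1.61 for MFA2, overlap. The suffix of the MFA1 probe set, _r_at, marks a set designed under relaxed probe rules, and whether either set also reads the other gene's transcript was not tested.

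STE6 encodes the membrane transporter of the ABC family that carries a-factor out of the cell. It read 5.98, 5.90 and 5.55 in wild type and 6.55, 6.71 and 7.03 in tra1-2ts. The groups did not overlap, with the closest arrays 0.56 apart. The rise was 0.95 ± 0.15 (1.93-fold, adjusted p = 0.00164).

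Before export the precursor is farnesylated, trimmed and methylated by enzymes whose genes are not restricted to a cells. Of 7 genes for this maturation 2 rose, 1 fell and 4 did not pass. Thus 28.6% rose and 42.9% passed either way, against 18.3% and 40.6% of all genes. AXL1, the protease of the last cut, rose from 5.24 ± 0.09 to 5.95 ± 0.29 (SD, n = 3; 1.63-fold, adjusted p = 0.00455), and STE23, a related protease, rose 1.38-fold (adjusted p = 0.0125, and 0.0518 without the tra1-2ts 90 min array). STE24, the membrane protease that also trims the precursor, fell 1.57-fold from 8.03 ± 0.20 to 7.38 ± 0.17 (adjusted p = 0.00437). None of these 3 calls held without both 90 min arrays (adjusted p of 0.0624 for AXL1, 0.125 for STE23 and 0.0566 for STE24). The median of the 7 was 0.25.

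BAR1 encodes the secreted protease that degrades alpha-factor, the pheromone of the other type, and thereby lets a cells recover from it. It read 7.54, 7.06 and 6.52 in wild type and 8.70, 8.69 and 8.79 in tra1-2ts. The tra1-2ts arrays sat close together, while the wild-type arrays spread more than for any other of the 8 genes (SD 0.51 against 0.056, n = 3 each). The rise of 1.68 ± 0.22 (adjusted p = 0.000606) therefore had the widest interval of the 8, 1.19 to 2.18.

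STE2 encodes the receptor for alpha-factor, a protein with 7 membrane spans coupled to a G protein. It read 7.64, 7.94 and 7.53 in wild type and 8.28, 8.36 and 8.57 in tra1-2ts. Its groups were among the closest of the 8, with 0.34 between the lowest mutant and the highest wild-type array, and its rise was 0.70 ± 0.13 (1.62-fold, adjusted p = 0.00308). ASG7 encodes an inhibitor of pheromone signalling that acts on the G protein's beta subunit Ste4 once mating cells have fused. It read 4.81, 4.66 and 4.88 in wild type and 5.46, 5.36 and 5.17 in tra1-2ts, and at 120 min the strains were 0.29 apart. Its rise, 0.54 ± 0.11, was the smallest of the 8 (adjusted p = 0.00408) and lost its call when both 90 min arrays were left out (adjusted p = 0.0743).

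AGA1 and AGA2 encode the parts of a-agglutinin, the adhesion protein by which a cells hold alpha cells: Aga1 is anchored in the wall, and Aga2 is bound to it by disulfide bonds and meets the partner's agglutinin. AGA1 read 6.31, 6.20 and 6.18 in wild type and 7.30, 7.19 and 7.29 in tra1-2ts. AGA2 read 6.58, 6.42 and 6.26 in wild type and 7.77, 7.70 and 7.82 in tra1-2ts. Neither overlapped between strains. The rise was 1.03 ± 0.09 for AGA1 (2.04-fold, adjusted p = 0.000111) and 1.35 ± 0.10 for AGA2 (2.54-fold, adjusted p = 8.56e-05), with overlapping 95% intervals of 0.83 to 1.23 and 1.11 to 1.58. AGA1, which is not restricted to a cells, thus lay inside the range of the 7 others.

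**Figure D2:**
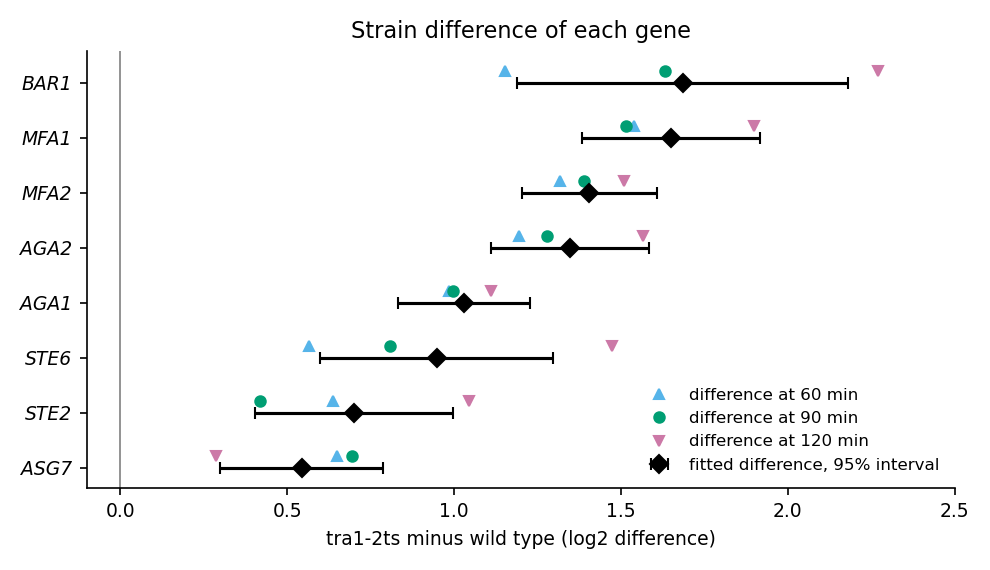
Difference between tra1-2ts and wild type in log2 units (horizontal axis) for each of the 8 genes, ordered by size. Diamonds with bars give the limma estimate with its 95% interval over 3 arrays a strain, and coloured marks give the difference at each time from 1 array a strain. All marks lie above 0, and the intervals of MFA1 (1.38 to 1.92) and ASG7 (0.30 to 0.79) do not overlap.

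The sizes thus fell into an order in which neighbours are not distinct. BAR1, MFA1, MFA2 and AGA2 formed the upper part, at 1.35 to 1.68, and STE2 and ASG7 the lower part. The 95% intervals of BAR1, MFA1, MFA2 and AGA2 all start above the upper end of ASG7's interval, at 0.79, and of STE2's, at 0.996. STE6 and AGA1 lay between, and STE6's interval of 0.60 to 1.30 overlaps those of both STE2 and AGA2. Sorted by difference over all 5551 genes, BAR1 came 15th from the top and MFA1 17th, and ASG7 came 438th.

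The next question was how the genes behaved from 60 to 120 min. No gene of the 8 passed the test of a slope shared by both strains (limma, adjusted p from 0.344 to 0.96, and none at an unadjusted p under 0.05), where 18 of 5551 genes, 0.324%, passed and 16.2% had an unadjusted p under 0.05. Per 60 min the shared slopes ran from -0.46 for BAR1 to 0.22 for MFA1. Within wild type, 5 genes read lower at each later time: MFA2, AGA1, AGA2, STE6 and BAR1. In tra1-2ts, 3 read higher at each later time, MFA1, STE2 and STE6, and ASG7 read lower. The share of all genes with such courses was not counted, so these counts cannot be read as a trait of the 8.

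The difference between the strains was wider at 120 than at 60 min for 7 of the 8 genes, ASG7 being the exception. The same was true of 61.2% of the genes called higher. The median difference of the 8 was 1.07 at 60 min, 1.14 at 90 min and 1.49 at 120 min, with 1 array a strain at each. At least 2-fold higher were 4 of the 8 at 60 min, 4 at 90 min and 7 at 120 min, against 1.82%, 3.28% and 2.95% of all genes.

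BAR1 and STE6 had the widest change in that difference. For BAR1 it was 1.15, 1.63 and 2.27 at 60, 90 and 120 min, and the change lay on the wild-type side, where the 120 min array was 1.02 below the 60 min array and the tra1-2ts arrays differed by 0.094. For STE6 it was 0.56, 0.81 and 1.47, with wild type 0.43 lower and tra1-2ts 0.48 higher at 120 than at 60 min. In the fit with a slope per strain, the slopes of tra1-2ts and wild type differed per 60 min by 1.12 ± 0.19 (SE) for BAR1 and 0.91 ± 0.21 for STE6. Neither passed after adjustment over all genes (limma, adjusted p = 0.67 for both, unadjusted p = 0.000772 and 0.0041). In that test 0 of 5551 genes, 0%, passed, while 2 of the 8 and 7.06% of all genes had an unadjusted p under 0.05. With 2 residual degrees of freedom the fit carries little information on a single gene.

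**Figure D3:**
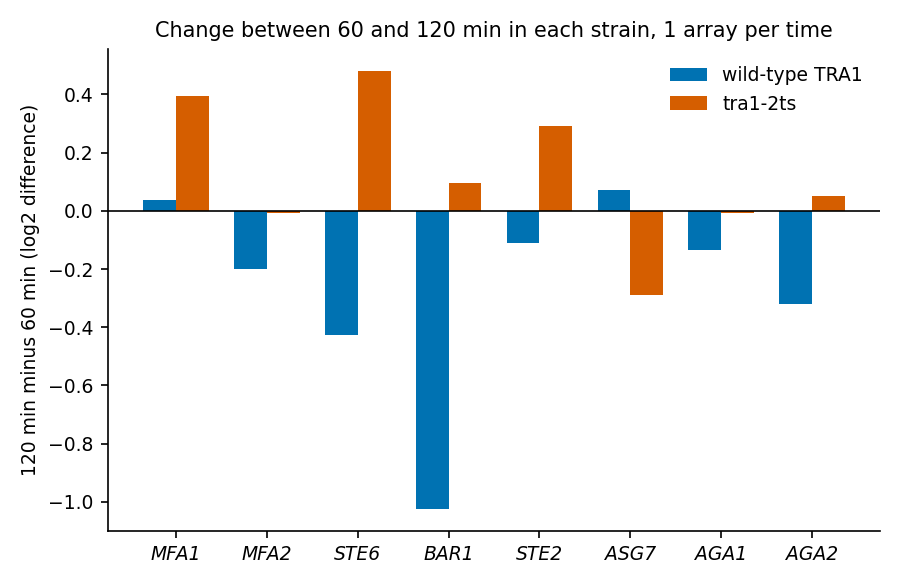
Signal at 120 min minus signal at 60 min in log2 units (vertical axis) for each of the 8 genes, as bars from 0 for wild type and tra1-2ts, from 1 array per time and strain. The longest bar is that of BAR1 in wild type, at -1.02, and STE6 has bars of opposite sign, -0.43 and 0.48. No error bars can be given.

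The arrays were also checked for the other cell types that a yeast culture can hold. The mean log2 level of the 8 a-specific genes was 7.06 to 7.32 on the wild-type arrays and 8.33 to 8.45 on the tra1-2ts arrays. Over 5 genes specific to alpha cells it was 4.76 to 5.0 and 4.95 to 5.12. Levels of different probe sets are not on a common scale, and MFA2, at 11.56 in wild type, lifts the a-specific mean. Gene by gene the lists overlapped in wild type, where SAG1 (6.23) lay above STE6 (5.81) and AFB1 (5.71) above ASG7 (4.78). The 2 means therefore do not show that the alpha genes were off. Of the 5 alpha genes, 2 rose, 1 fell and 2 did not pass, so that 40% rose and 60% passed either way, against 18.3% and 40.6% of all genes. SAG1, alpha-agglutinin, rose from 6.23 ± 0.09 to 6.72 ± 0.15 (SD, n = 3; 1.41-fold, adjusted p = 0.00599). MF(ALPHA)1, the main alpha-factor gene, rose from 5.15 ± 0.17 to 5.59 ± 0.13 (1.36-fold, adjusted p = 0.0156), and missed the threshold without the wild-type 90 min or the tra1-2ts 120 min array (adjusted p of 0.0537 and 0.0555). Without both 90 min arrays neither SAG1 nor MF(ALPHA)1 passed (adjusted p of 0.0867 and 0.0737), and MF(ALPHA)1 did not pass without both 60 min arrays either (0.0653). AFB1, a barrier protein against a-factor, fell 1.82-fold from 5.71 ± 0.05 to 4.85 ± 0.09 (adjusted p = 0.000222).

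Of the remaining alpha markers STE3 lay under the floor and MF(ALPHA)2 close to it. STE3, the receptor for a-factor and a defining gene of alpha cells, lay between 3.33 and 3.66 on the wild-type arrays and between 3.64 and 3.81 on the mutant arrays, all under the floor (adjusted p = 0.12). MF(ALPHA)2 read 3.95 and 4.14 on average (adjusted p = 0.258). The part of alpha-type transcripts in the rise of the a-specific genes was not tested. HMRA1, the silent copy of the regulator gene a1 that MATa cells express, averaged 2.97 ± 0.07 (SD) over the 3 wild-type arrays and 3.04 ± 0.07 over the 3 mutant arrays, under the floor in both, so this probe set did not show the mating type. For a gene that is off, these probe sets have no reference array of the other type here.

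Genes that haploid cells of both types express, and diploids do not, moved in both directions. Of 10, 5 rose and 3 fell, with a median of 0.20. By share 50% rose and 80% passed either way, against 18.3% and 40.6% of all genes. FAR1, which arrests the cell cycle under pheromone, rose 2.37-fold, SST2, the GTPase activator that damps the G protein, 1.88-fold, STE18, the gamma subunit, 1.54-fold, and GPA1, the alpha subunit, 1.37-fold (adjusted p from 0.000396 to 0.00457). GPA1 did not pass without both 90 min arrays (adjusted p = 0.0614). The 3 that fell, named after their values were seen, were STE5, the scaffold of the kinase cascade, by 0.26 (adjusted p = 0.0404), FUS3, its last kinase, by 0.46 (adjusted p = 0.0411), and NEJ1, which serves DNA end joining, with means of 3.28 and 2.80, both under the floor (adjusted p = 0.0104). With 1 array left out, STE5 missed the threshold in 5 of 6 fits (adjusted p from 0.0523 to 0.122) and FUS3 in 4 (0.0598 to 0.128). Without both 90 min arrays none of the 3 passed (adjusted p of 0.253, 0.163 and 0.117), and STE5 also missed it with arrays centred on their medians (0.0822). The mean level of the 10 was 6.04 to 6.31 on the wild-type and 6.29 to 6.45 on the tra1-2ts arrays.

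**Figure D4:**
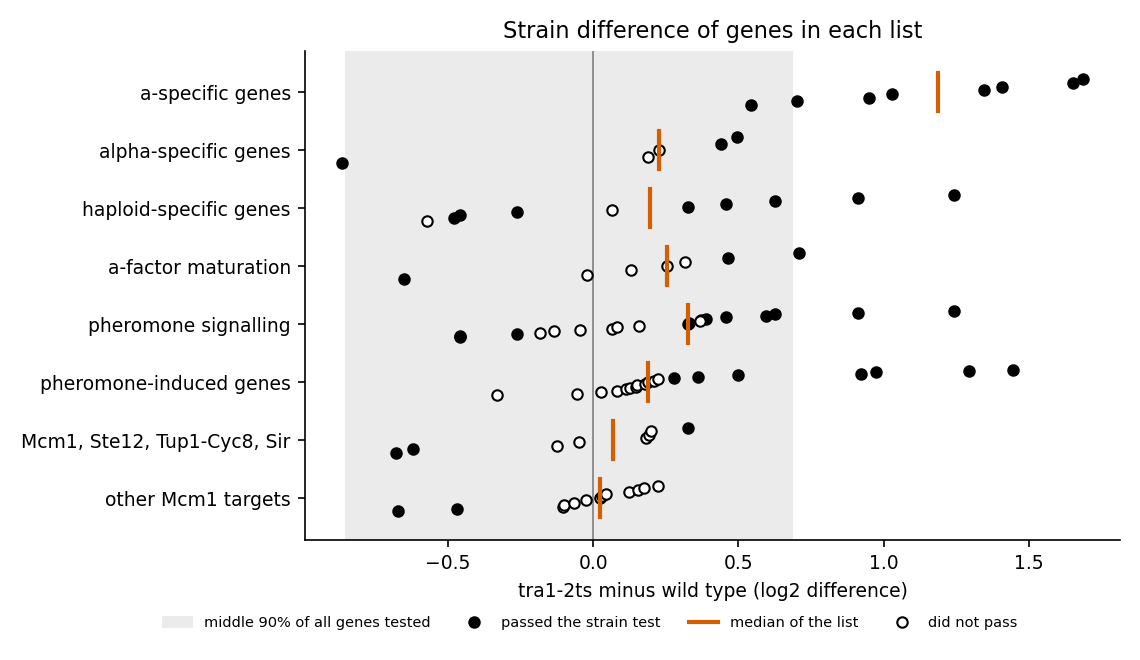
Difference between tra1-2ts and wild type in log2 units (horizontal axis) for the genes of 8 lists, 1 point a gene, filled where the gene passed the strain test, with a bar at the median of the list. The shaded band holds the middle 90% of all 5551 genes, from -0.85 to 0.68. Of the 8 a-specific genes 7 lie to the right of the band, and the median of the 8 is 1.19, against 0.02 for other targets of Mcm1. In 3 of those 13 other targets both strain means lay under the floor, and CLB1, CLB2 and SWI5 had means near or under it.

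Signalling and response genes of the pheromone pathway were counted against all genes, of which 18.3% rose and 40.6% passed either way. Of 19 signalling genes 9 rose and 3 fell, 47.4% and 63.2% by those counts, with a median of 0.33. This list shares GPA1, STE4, STE18, STE5, FUS3, STE12, FAR1 and SST2 with the haploid-specific list, so the counts of these lists are not independent. Besides FAR1, STE18 and SST2, the exchange factor gene CDC24 rose 1.51-fold (adjusted p = 0.000805). The 3 that fell were STE5, FUS3 and MSG5, the last by 1.37-fold (limma, adjusted p = 0.00826). Of 19 measured genes that pheromone induces, outside the 8, 7 rose, 36.8%, and none fell (none at an unadjusted p under 0.05 in limma either), with a median of 0.19. SCW10, a wall glucanase, rose 2.72-fold from 9.70 ± 0.44 to 11.14 ± 0.15, PRM3, which serves fusion of the nuclei, 2.45-fold, and GIC2, an effector of Cdc42, 1.97-fold (adjusted p of 0.000802, 0.000175 and 0.00609, the last 0.066 without both 90 min arrays). FUS1, the classical reporter of the pathway, averaged 3.06 over the wild-type arrays, under the floor, and 3.98 over the mutant arrays, close to it (adjusted p = 0.000391), so no size is given for it. FIG1, another of the 7 that rose, averaged 3.69 in wild type, under the floor, and 4.05 in tra1-2ts, close to it. PRM3 and KAR5, also among the 7, had wild-type means of 4.32 and 4.27, little above the floor. The size given for PRM3 thus rests on a weak wild-type signal. The genes of this list that did not pass, 12 of 19, include PRM1, for fusion of the plasma membranes, at 0.08, and FUS2, needed for cell fusion. FUS2 averaged 3.82 in wild type, under the floor, and 3.97 in tra1-2ts, close to it, so no size is given for it either. Both were named after their values were seen. In 3 of the 19 genes, PRM2, PRM6 and PRR2, which did not pass, both strain means lay under the floor.

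Of 8 genes for regulators of mating type 1 rose and 2 fell, with a median of 0.07. By share 12.5% rose and 37.5% passed either way, against 18.3% and 40.6% of all genes. In 2 of the 8, SIR1 and SIR4, which did not pass, both strain means lay under the floor. STE12 rose by 0.33 ± 0.11 (adjusted p = 0.0452), and this call ended in 5 of the 6 fits that left out 1 array (adjusted p from 0.0589 to 0.127) and in each of the 3 that left out a time point (0.0708, 0.11 and 0.264). SIR3 and SIR2, which silence the spare mating type copies, fell 1.6- and 1.54-fold (adjusted p of 0.00122 and 0.0013). MCM1, TUP1 and CYC8, also named after their values were seen, differed by 0.19, -0.12 and -0.05 and did not pass (adjusted p of 0.147, 0.502 and 0.815). Of 13 measured genes that Mcm1 serves elsewhere, at the start and the end of the cell cycle, 0 rose (0 also at an unadjusted p under 0.05). Among them 2 fell, SWI5 and BUD4, with a median of 0.02 for the list (limma, adjusted p of 0.00164 and 0.00918). By share 0% rose and 15.4% passed either way, against 18.3% and 40.6% of all genes. In 3 of the 13, SWI4, CDC6 and MCM6, both strain means lay under the floor. BUD4 fell 1.38-fold; SWI5 averaged 4.09 in wild type and 3.42, under the floor, in the mutant, so no fold is given for it.

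The genes that flank the 8 on the chromosomes passed the strain test about as often as genes in general, in both directions. The 8 are not next to one another, and the nearest measured gene on either side was taken from RefSeq's gene order, which gave 16 neighbours, none of which overlaps its a-specific gene. Of these, 3 rose, 3 fell and 10 did not pass, with a median of 0.08. Of all genes 18.3% rose and 40.6% passed either way, which is near the shares of the neighbours. The extremes were RPL24A beside AGA2, a ribosomal protein gene that was lower by 0.89 ± 0.16 (SE; limma adjusted p = 0.00235), and MVD1 beside AGA1, a gene of the mevalonate pathway that was higher by 0.52 ± 0.11 (adjusted p = 0.00454). In 4 of the 16 neighbours (MPF1 and YNL146W beside MFA2, HOP2 beside AGA2 and SET2 beside ASG7) both strain means lay under the floor, and MPF1 is 1 of the 3 that fell.

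**Figure D5:**
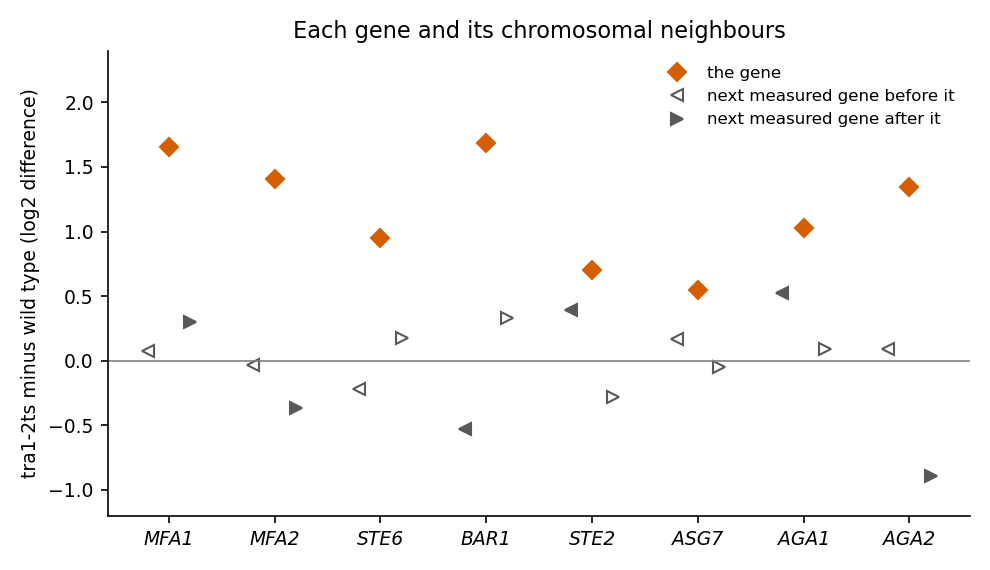
Difference between tra1-2ts and wild type in log2 units (vertical axis) for each of the 8 genes (diamonds) and the nearest measured gene before and after it in RefSeq order (triangles, filled where the gene passed the strain test). The neighbours run from -0.89 to 0.52, and 4 of them, both beside MFA2 and 1 each beside AGA2 and ASG7, have both strain means under the floor.

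Other genes had nearly the same course over the 6 arrays. Each gene was centred on its own mean, and likeness was taken as the root mean square distance from the mean course of the 8, in log2 units, among 4914 other genes at or above the floor. The 6 nearest were ERG13, the HMG-CoA synthase of sterol synthesis, at a distance of 0.033, ARG4 of arginine synthesis at 0.067, RPR1, the RNA of RNase P, at 0.070, GDS1 at 0.079, the small nucleolar RNA gene SNR9 at 0.081 and the tRNA gene SUP51 at 0.094. They rose between 2.07- and 2.31-fold. The 8 genes themselves lay between 0.093 (AGA1) and 0.36 (ASG7) from their own mean course, so the 5 nearest of these genes were closer to it than any of the 8. Only 3 of the 6 nearest are protein-coding, and how well the labelling reads RNAs such as RPR1, SNR9 and SUP51 was not tested. The SUP51 probe set has the suffix _s_at, and whether it also reads other transcripts was not tested.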

How the data were processed

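The authors deposited log2 signals, 1 value per probe set and array, made by RMA with the R package oligo, per the submitters' processing notes. Versions are not given in the sources used here. Per the labels, a 3' in vitro transcription kit put biotin on the RNA. Of 6776 probe sets, 5668 name 1 gene, and the set with the highest mean was kept per gene, which gave 5551 genes, all matched to RefSeq (assembly R64) by gene ID. Since no build is stated, coordinates are left out; sequences were not used here.

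Tests used limma 3.58.1 in R 4.3.3 on all genes, two-sided, with Benjamini-Hochberg adjustment and a threshold of 0.05: genotype alone (4 residual degrees of freedom), a shared slope over minutes beside genotype, and a slope per strain. Standard errors are limma's, and SDs are over 3 arrays. The small number of arrays limits precision.

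The genes and lists were chosen with earlier results of these data known. Named were the 8 genes, TRA1, the alpha-specific genes, HMRA1, up to 4 passing genes per list by p, and the 6 likest genes; other names were added after seeing values, among them RPL24A and MVD1. Title numbers mark the time, so same-numbered arrays are paired by the labels: their deviations from the strain means correlated with r across genes of 0.31, 0.0656 and 0.33 at 60, 90 and 120 min. Columns of other samples numbered 0.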

Additional observations from a re-analysis of the deposited data

Results flagged for a closer look

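A probe set left out of the comparisons, because it names 3 genes of the mating type loci, differed between the strains. Its 3 wild-type values lay between 4.94 and 5.16 and its 3 tra1-2ts values between 5.41 and 5.67, above the mouse controls, and the difference was 0.46 ± 0.11 (SE; limma over all 6776 probe sets, adjusted p = 0.0103). Another set that names the same number of genes had strain means of 7.15 and 7.48 and did not pass (difference 0.33 ± 0.18, adjusted p = 0.191). Which transcript either set reads was not tested.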

How the results depend on the processing

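All 8 genes kept their direction in each of 18 alternative fits of the strain test. For most of these fits that outcome was fixed in advance. Leaving arrays out could not turn a sign, since the strains did not overlap in any of the 8. Fits with another model, gene filter or choice of probe set leave the estimates of the 8 unchanged. Only array centring and quantile normalization could have changed the direction. The call was kept by 7 in all fits, the exception being ASG7 without both 90 min arrays. ASG7 met the filter at the lower quartile of gene means, 5.05, only through tra1-2ts (wild type 4.78, tra1-2ts 5.33), so that call is no support. With the time point as a replicate block, 8 of the 8 and 2520 genes in all passed, and the block ended none of the calls of the 8. Of all genes, 1004 passed without both 90 min arrays, 1384 at an adjusted p under 0.01 and 297 with a difference of at least 2-fold added, which 5 of the 8 met. In the shared time slope, 7 genes passed with time as a factor, 0 without a genotype term and 11 with dim genes left out, and between 0 and 12 when 1 array was left out; none of the 8 passed in any of these. With 1 array left out, the slopes of 3 genes turned sign, running from -0.057 to 0.35 for STE2, -0.28 to 0.35 for STE6 and -0.29 to 0.018 for ASG7; this happened without the tra1-2ts 120 min array for all 3 and without the tra1-2ts 60 min array for STE2 and STE6, and the cause was not tested. Slope differences of the 8 kept sign and missed the threshold in all 4 alternatives. Signal near the mouse controls limits FUS1, FUS2, STE3, HMRA1, SWI5, NEJ1 and 4 neighbours. It also limits FIG1, PRM2, PRM6 and PRR2 among the pheromone-induced genes, and SWI4, CDC6, MCM6, CLB1 and CLB2 among the other Mcm1 targets. MF(ALPHA)2 and, among the regulators of mating type, SIR1 and SIR4 are limited in the same way.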
